A study of Mus musculus with 6 samples.

Results

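The genes described here are 10 genes of bone morphogenetic protein (BMP) and growth differentiation factor 5 (GDF5) signaling, out of 55421 genes in the deposited count table. They are the ligand genes *Gdf5*, *Bmp2*, and *Bmp4*, the receptor genes *Bmpr1a* and *Bmpr2*, the signal transducer genes *Smad1* and *Smad5*, and the target genes *Id1*, *Id2*, and *Id3*. The genes were chosen by name with results of the same comparison of these libraries known, *Gdf5* among them for its large difference between the groups. Their differences between the groups are therefore given as a description, with no p-value, and whether a gene passed the threshold used for all genes is stated only to describe it and is no evidence of a difference. RNA-seq had been performed on C2C12 cells, a mouse myoblast line that fuses into myotubes in low serum, at differentiation day 4. The normal group carried a *GFP* plasmid with 5 CTG repeats (GFP-CUG5), and the myotonic dystrophy type 1 (DM1) group carried the same kind of plasmid with 200 CTG repeats (GFP-CUG200). Each group had 3 libraries. In both groups the repeats lay behind *GFP*, and the cells had been transfected with PolyJet, selected with G418 until stable, and differentiated in horse serum with insulin. The study calls the 3 replicates of each group biological. Neither the labels nor the methods say whether they came from separate transfections or cultures, so p-values measure only the spread between these samples.

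BMP and GDF ligands are secreted proteins of the TGF-β superfamily that bind pairs of type I and type II serine/threonine kinase receptors on the cell surface. The type I receptor phosphorylates SMAD1, SMAD5, and SMAD9, which join SMAD4 and switch on genes such as the *Id* genes. ID proteins bind E proteins and keep them from pairing with myogenic factors such as MYOD1, and BMP treatment is known to hold C2C12 cells back from muscle differentiation and turn them towards the osteoblast lineage.

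The *Id* genes are known for BMP-responsive promoters, and the promoters of *Id2*, which was higher in the DM1 group, and *Id3*, which was not, are shown for comparison. RefSeq promoter windows of GRCm38.p6, from 250 bases before to 50 bases after the transcript start, were found for 7 of the 10 genes, and those of *Gdf5*, *Bmp2*, and *Id1* were not used here. The 2 windows lie at chr12:25096043-25096342 on the minus strand (*Id2*) and chr4:136143572-136143871 on the plus strand (*Id3*), and are printed 5′ to 3′. Capitals mark matches on either strand to GGCGCC, a GC-rich element known to bind BMP-activated SMADs, to CAGAC, the SMAD box (its reverse complement reads GTCTG), and to CANNTG, the E-box bound by basic helix-loop-helix (bHLH) factors. No match overlapped another in these windows.
Id2: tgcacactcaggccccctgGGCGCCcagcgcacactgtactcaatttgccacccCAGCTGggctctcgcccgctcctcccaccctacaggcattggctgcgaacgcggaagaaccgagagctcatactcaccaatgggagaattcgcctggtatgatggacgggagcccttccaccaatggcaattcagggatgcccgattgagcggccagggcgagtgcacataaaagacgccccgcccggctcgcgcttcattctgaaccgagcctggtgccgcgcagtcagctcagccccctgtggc
Id3: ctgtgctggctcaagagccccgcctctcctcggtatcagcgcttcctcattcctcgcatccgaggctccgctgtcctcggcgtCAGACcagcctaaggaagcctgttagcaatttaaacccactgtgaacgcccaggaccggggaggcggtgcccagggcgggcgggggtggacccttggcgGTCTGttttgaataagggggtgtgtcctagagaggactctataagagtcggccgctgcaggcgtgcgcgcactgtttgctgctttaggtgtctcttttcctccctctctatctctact
The *Id2* window held 1 GGCGCC match, 231 bases before the start, and 1 E-box, CAGCTG, 196 bases before it. The *Id3* window held neither, and held 2 SMAD boxes, 167 and 68 bases before the start. Among all 32851 promoters of this length, 11.9% held GGCGCC, 49.6% held CAGAC, and 72.3% held an E-box. Of the other members, the *Bmpr1a* and *Bmpr2* windows each held 1 GGCGCC match, and the *Bmp4* window held 3 E-boxes. *Smad5* had 3 windows from different starts, of which 2 overlapping windows held 1 GGCGCC match and 1 E-box each and the third held 1 SMAD box, and the *Smad1* window held none of these motifs. These matches describe the letters in the windows only.

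The libraries held between 61707889 and 80957325 counts, in which each count equals 75 aligned bases rather than 1 read. Across the 19005 genes past a filter on low counts, the quasi-likelihood test of edgeR called 1356 genes higher (7.13%) and 1660 genes lower (8.73%) in the DM1 group, at a Benjamini-Hochberg adjusted p under 0.05. With an absolute log2 fold change over 1 as well, 414 genes (2.18%) passed. Without the fold cutoff and with 1 library left out, 543 to 1678 genes were called higher and 485 to 2111 lower. The median log2 fold change of all tested genes was 0.02. Markers of differentiating muscle moved with the group: 6 of 8 (*Ckm*, *Myog*, *Myh3*, *Acta1*, *Tnnt3*, and *Des*) were lower in the DM1 group, and the summed level of the 8 was 8600 to 10126 TPM (transcript abundance scaled for transcript length and library size) in the normal libraries and 4441 to 6610 TPM in the DM1 libraries. The fusion genes *Mymk* (log2 fold change -0.55) and *Mymx* (0.23) were not called, but *Mymx* stood higher in each DM1 library (67.3 to 73.5 CPM) than in each normal library (58.3 to 60.8 CPM) and was called higher without the DM1 library 3. Of 6 markers of undifferentiated myoblasts, *Cd34* was higher (0.97) and 5 were not called, *Cdk1* at 0.31, *Mki67* at -0.13, *Pax7* at -0.14, *Myf5* at -0.26, and *Spry1* at -0.32, and the median of the 6 was -0.13. Without the DM1 library 3, 2 of these 6 were called higher. *Spry1* had 11 counts in the normal library 1 and in the DM1 library 2, against 668 to 964 in the others. Its standard error was 1.87. In bulk RNA, fewer cells of a type and less RNA per cell cannot be told apart, and the part of these shifts in the results for the BMP genes was not tested.

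Of the 10 genes, 9 passed the filter on low counts and *Bmp2* did not. *Gdf5* was at the edge of detection in the normal group and lower still in the DM1 group, *Id2* was higher in the DM1 group, and the other 7 genes did not pass the threshold in either direction. The single gene called higher and the single gene called lower stand beside the 7.13% and 8.73% of all tested genes, and nothing is read from these counts because the same comparison served to choose the genes. The levels in CPM (counts scaled for library size) did not overlap between the groups for 4 of the 9 genes, *Gdf5*, *Smad5*, *Id2*, and *Id3*, as for 37.2% of all tested genes. The median log2 fold change of the 9 genes was -0.07.

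**Figure D1:**
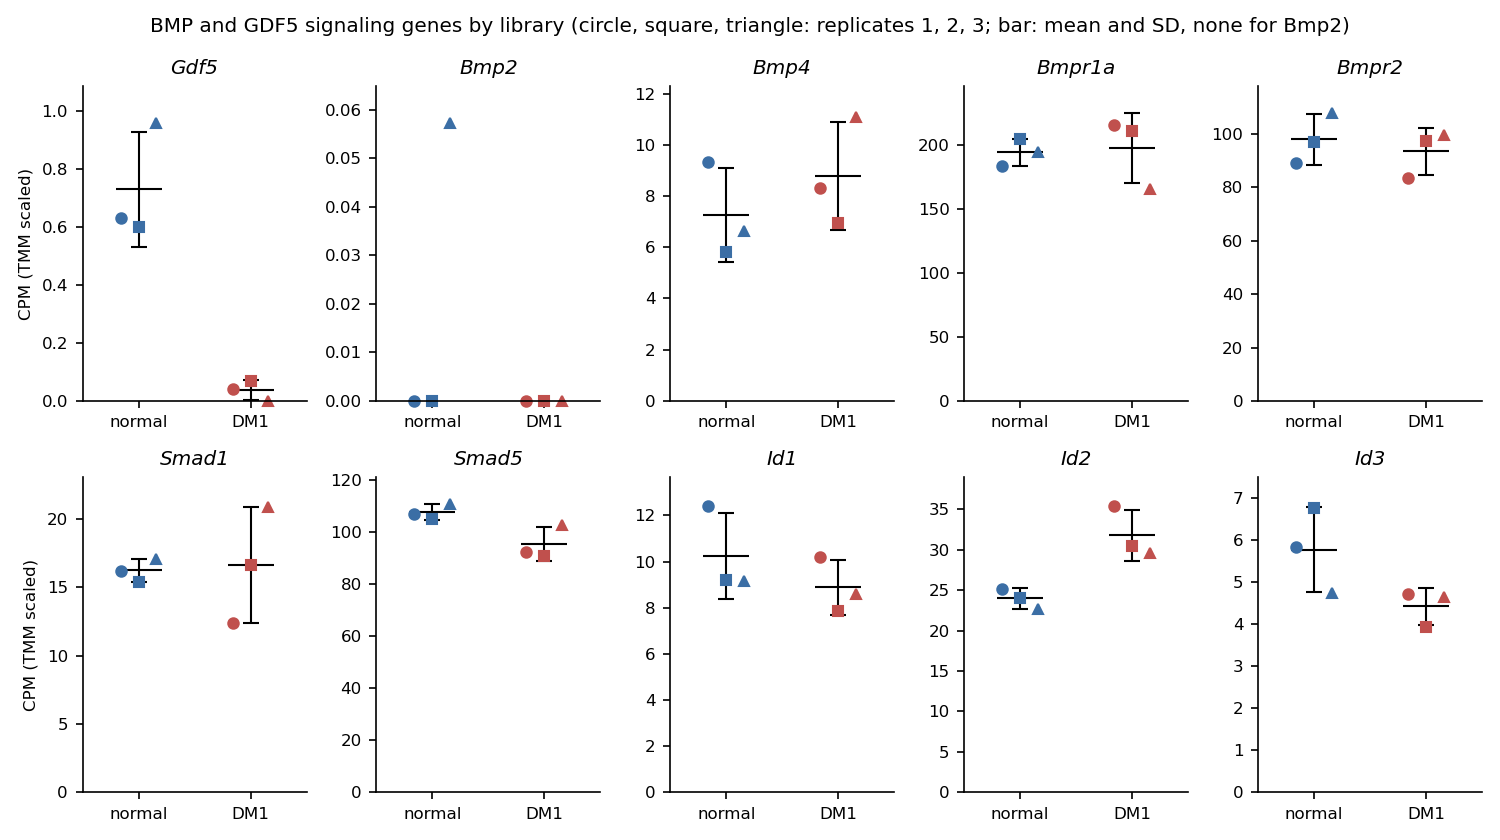
CPM (TMM scaled, linear axes from 0) of the 10 genes in each of the 3 normal (blue) and 3 DM1 (red) libraries, with the mean and SD of each group as black bars (none for *Bmp2*). *Gdf5* lies between 0.602 and 0.959 CPM in the normal libraries and at most at 0.0702 CPM in the DM1 libraries, *Id2* is separated upwards, and most other genes overlap.

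*Gdf5* encodes a ligand known for its part in joint formation and in the protection of muscle mass after denervation. It lies on chromosome 2 (chr2:155941023-155945367, minus strand, GRCm38), as a protein-coding gene with 1 annotated transcript. Normal libraries 1, 2, and 3 held 53, 37, and 67 *Gdf5* counts, whereas DM1 libraries 1, 2, and 3 held 3, 5, and 0. The groups did not overlap, with the highest DM1 library far under the lowest normal library. In CPM the level was 0.73 ± 0.198 (SD, n = 3) in the normal group and 0.0368 ± 0.0352 (SD, n = 3) in the DM1 group, and the fitted log2 fold change was -4.22 with a standard error of 0.743. The edgeR test treats each 75-base count as a read, and with counts divided by 4 the log2 fold change of *Gdf5* was -3.59.

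The size of the *Gdf5* difference was poorly fixed, because the DM1 group held almost no signal. The commonest low value in the table was 4 counts, or 300 bases, which was taken as 1 fragment, so that the summed counts of 157 and 8 stand for about 39 fragments in the normal group and 2 in the DM1 group. Their ratio, scaled for library size, was 19.3, with a 95% counting interval from 4.97 to 164 that covers counting error only. A floor of 3 counts is worth 0.0357 to 0.0488 CPM in these libraries, and the DM1 libraries 1 and 3 were at or under 3 counts. *Gdf5* passed the filter only through its level in the normal group, so any gene like it had to differ.

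*Gm15557*, a gene on the opposite strand that shares 936 exonic bases with *Gdf5*, had 0 counts in every library. Within 500 kb of *Gdf5*, 32 other genes were tested, of which 3 were higher and 2 lower in the DM1 group. Over all tested genes, 7.13% were higher and 8.73% lower. The median log2 fold change of the 32 genes was 0.06. The nearest tested genes, *Uqcc1* at 10713 bases and *Cep250* at 11091 bases, had log2 fold changes of -0.25 and 0.31 and were not called.

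*Bmp4*, which encodes the ligand that C2C12 cells are often treated with, was the most abundant BMP ligand transcript in both groups. It lies at chr14:46383520-46390669 on the minus strand. Its level was 9.32, 5.83, and 6.65 CPM in the normal libraries and 8.31, 6.93, and 11.1 CPM in the DM1 libraries. The groups overlapped, and the log2 fold change of 0.27 was near its standard error of 0.224. *Bmp2* (chr2:133552159-133562885, plus strand), the ligand best known for driving C2C12 cells into osteoblasts, had 4 counts in the normal library 3 and 0 in the other 5 libraries. That is about 1 fragment in all, and no comparison was possible.

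Per transcript length, *Bmp4* made up 85.3% ± 3.7 (SD, n = 3) of the summed TPM of the BMP and GDF ligand genes in the normal group and 90.4% ± 4.21 in the DM1 group. *Gdf5* made up 6.91% ± 2.42 in the normal group and 0.292% ± 0.334 in the DM1 group. The summed ligand level itself overlapped between the groups, at 10.6, 6.23, and 7.05 TPM in the normal libraries and 8.36, 6.54, and 11.1 TPM in the DM1 libraries.

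*Bmpr1a*, a type I receptor also known as ALK3, had the highest level of the 10 genes. It lies at chr14:34410734-34503341 on the minus strand. It stood at 184, 205, and 195 CPM in the normal libraries and 216, 211, and 166 CPM in the DM1 libraries. The DM1 values lay on both sides of the normal ones, and the log2 fold change was 0.02 with a standard error of 0.113.

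*Bmpr2* (chr1:59763400-59879014, plus strand), the type II receptor dedicated to BMP and GDF ligands, stood at 89.1, 96.9, and 108 CPM in the normal libraries and 83.5, 97.2, and 99.6 CPM in the DM1 libraries. The groups overlapped, with a log2 fold change of -0.07 and a standard error of 0.104. *Bmpr1a* was 67.2% ± 4.21 (SD, n = 3) of the summed type I receptor TPM in the normal group and 69.6% ± 6.53 in the DM1 group, and *Bmpr2* was 58% ± 0.62 and 60.8% ± 6.07 of the type II receptor TPM. These shares overlapped, while that of the type II receptor *Acvr2a* did not, at 39.6% to 41.5% in the normal libraries and 30.9% to 38.8% in the DM1 libraries. The summed TPM was lower in each DM1 library than in each normal library for both receptor types. For the type I receptors it was 82.6 to 89.8 in the normal and 68.5 to 79 in the DM1 libraries. For the type II receptors it was 21.3 to 23.7 and 16.7 to 20.1. These sums were compared in TPM only. In CPM the levels of *Bmpr1a*, *Acvr1*, *Bmpr2*, and *Acvr2a* each overlapped between the groups.

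*Smad5* (chr13:56703010-56742377, plus strand) was the more abundant of the transducer genes. It stood at 107, 105, and 111 CPM in the normal libraries and 92.4, 91, and 103 CPM in the DM1 libraries. The groups did not overlap on this scale, and the log2 fold change was -0.17 with a standard error of 0.0823. In TPM they overlapped, at 32.8, 28.3, and 35.7 in the normal libraries and 20.4, 25.5, and 33.4 in the DM1 libraries.

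*Smad1* (chr8:79338395-79399518, minus strand) stood at 16.2, 15.4, and 17.1 CPM in the normal libraries and 12.4, 16.6, and 20.9 CPM in the DM1 libraries. Its means were nearly equal, at a log2 fold change of 0.03 with a standard error of 0.176, while its coefficient of variation was 5.04% in the normal group and 25.6% in the DM1 group. The split between the transducers was steady, with *Smad5* at 75.7% ± 2.4 (SD, n = 3) of the summed *Smad1*, *Smad5*, and *Smad9* TPM in the normal group and 74.5% ± 2.96 in the DM1 group.

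The *Id* genes, direct targets of the SMADs, did not move together. *Id2* was higher and *Id3* lower in every DM1 library than in every normal library on the CPM scale, and *Id1* overlapped. *Id2* (chr12:25093799-25097140, minus strand) stood at 25.2, 24, and 22.7 CPM in the normal libraries and 35.4, 30.4, and 29.6 CPM in the DM1 libraries. Its fold change was 1.33, or 0.41 on the log2 scale with a standard error of 0.103, and the groups were also separate in TPM, at 27.8 to 35.8 and 36.6 to 40.3. *Id2* no longer passed the threshold without any one of the normal libraries 1, 2, and 3 or the DM1 libraries 1 and 2, where the log2 fold change over all left-out libraries ran from 0.34 to 0.45, and in the limma test of the TPM values.

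*Id1* (chr2:152736251-152737410, plus strand) stood at 12.4, 9.2, and 9.14 CPM in the normal libraries and 10.2, 7.87, and 8.61 CPM in the DM1 libraries. The normal library 1 was the highest, the groups overlapped in CPM, and the log2 fold change was -0.20 with a standard error of 0.166. In TPM each DM1 library was lower than each normal library, at 23.4, 15.9, and 15.5 in the normal libraries and 15.3, 12.4, and 15.5 in the DM1 libraries, with the nearest libraries equal at this rounding. *Id3* (chr4:136143497-136145755, plus strand) stood at 5.83, 6.77, and 4.74 CPM in the normal libraries and 4.72, 3.93, and 4.65 CPM in the DM1 libraries. The gap between the groups was only that between 4.72 and 4.74 CPM, and the groups overlapped in TPM. The *Id3* log2 fold change was -0.38 with a standard error of 0.173.

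The summed level of the *Id* transcripts was about the same in the groups, at 58.4 ± 9.03 TPM (SD, n = 3) in the normal group and 59 ± 4.63 TPM in the DM1 group, while its make-up differed. The *Id2* share was 52.7%, 55.1%, and 55.5% in the normal libraries and 65.2%, 67.9%, and 64.1% in the DM1 libraries, with no overlap. The *Id1* share was 31.1% ± 3.23 in the normal group and 24.3% ± 1.25 in the DM1 group, and the *Id3* share was 14.5% ± 2.22 and 9.97% ± 1.16. The ratio of *Id2* to *Id1* TPM was 1.53, 1.97, and 1.79 in the normal libraries and 2.57, 2.96, and 2.6 in the DM1 libraries. *Id4* had 4 counts in the DM1 library 1 and 0 in the other libraries.

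**Figure D2:**
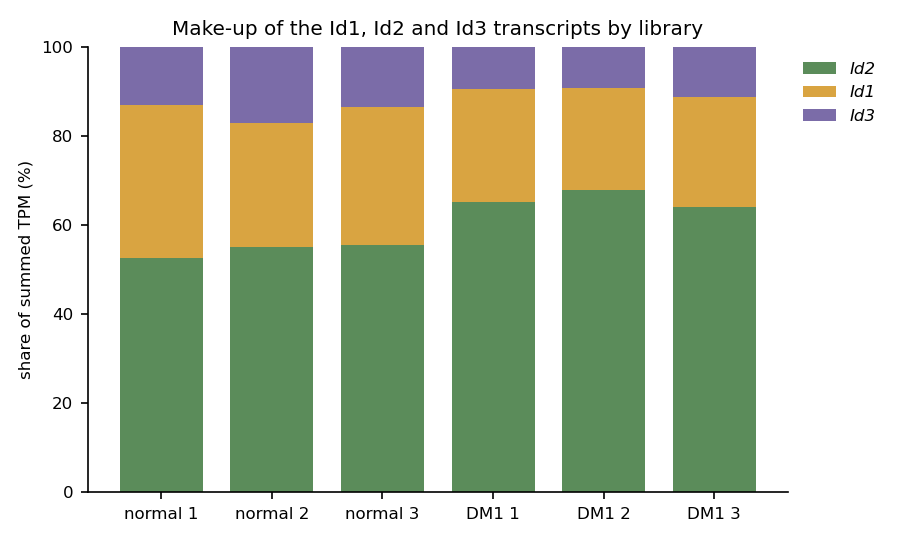
Share of *Id2*, *Id1*, and *Id3* in their summed TPM (percent, stacked bars from 0) in each of the 6 libraries. The *Id2* share is 52.7% to 55.5% in the normal libraries and 64.1% to 67.9% in the DM1 libraries.

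The order of the levels per transcript length was compared in TPM. In the normal group it ran *Bmpr1a* (57.7 ± 3.26 TPM, SD, n = 3), *Smad5* (32.3 ± 3.7), *Id2* (31.7 ± 4.03), *Id1* (18.3 ± 4.41), *Bmpr2* (12.8 ± 0.666), *Smad1* (10.2 ± 1.55), *Id3* (8.44 ± 1.51), *Bmp4* (6.86 ± 2.32), *Gdf5* (0.523 ± 0.125), and *Bmp2*. Neighbours overlapped between *Smad5* and *Id2*, *Smad1* and *Id3*, and *Id3* and *Bmp4*. In the DM1 group *Id2* (38.7 ± 1.91 TPM) stood above *Smad5* (26.5 ± 6.55) without overlap, and *Bmp4* (7.91 ± 2.46) above *Id3* (5.91 ± 1.1) with overlap. *Bmpr1a* was first at 52.1 ± 2.63 TPM, and the run from *Id1* (14.4 ± 1.75) over *Bmpr2* (11.4 ± 2.13) and *Smad1* (9.13 ± 3.49) to *Bmp4* overlapped at each step.

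**Figure D3:**
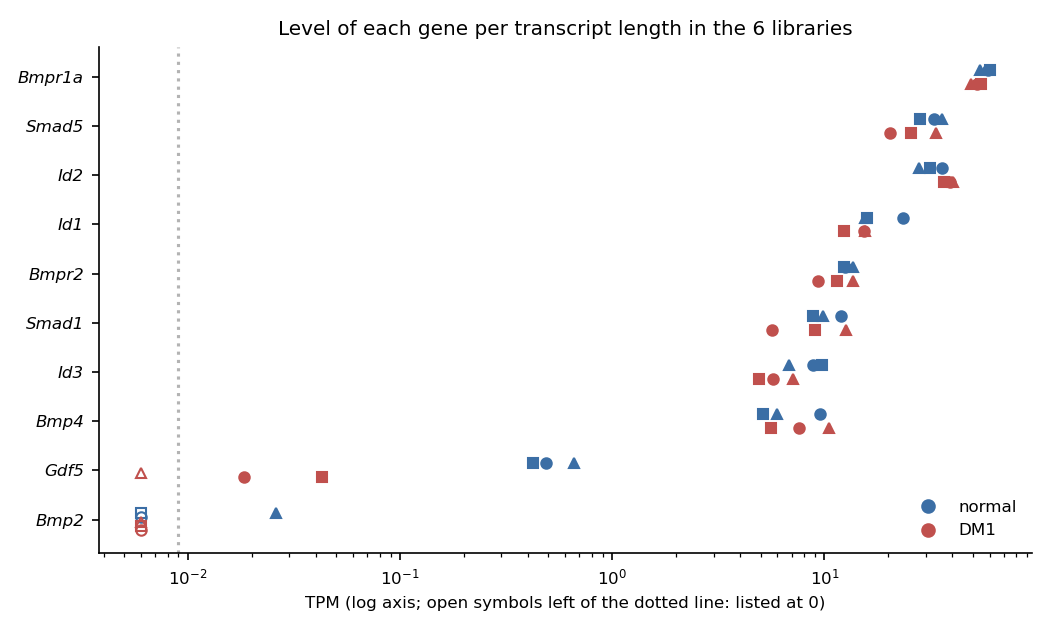
Level of the 10 genes in TPM (logarithmic axis) in each normal (blue) and DM1 (red) library, ordered by the normal mean; circles, squares, and triangles are replicates 1, 2, and 3, and open symbols are libraries listed at 0. *Bmpr1a* is highest at 49.3 to 60 TPM, and *Gdf5* and *Bmp2* lie below 1 TPM in every library.

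Genes with the pattern most like *Gdf5* over the 6 libraries, by Pearson's r of the log2 CPM, were *Cbx5* (r = 0.996), *Trpv6* (0.995), *Zbtb1* (0.994), *Cacul1* (0.994), and *Slc12a2* (0.994). Those most like *Id1* were *Ap1ar* (r = 0.993), *S1pr2* (0.991), *Phlda3* (0.987), *Fkbp9* (0.987), and *Med1* (0.984). With 6 libraries that share their group and depth these values only describe likeness, since 53 genes had the same rank order as *Gdf5* and 38 genes the same as *Id1*. The 5 genes most like *Gdf5* had log2 fold changes of -0.74 to -0.24, against -4.22 for *Gdf5* itself. Of these, *Cbx5* and *Trpv6* were not called.

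The other genes of the pathway were taken from 6 lists with 84 genes, of which 67 were tested. The pathway and marker lists were chosen with earlier results of these data known, so the shares called only describe the lists. In the DM1 group 7 were higher and 15 lower, which is 32.8% of those tested, beside 7.13% higher and 8.73% lower among all tested genes. They had a median log2 fold change of 0.01 against 0.02 for all tested genes. The adjusted p-values given for these genes come from the quasi-likelihood test of edgeR, adjusted by Benjamini-Hochberg over all tested genes. They do not account for how the lists were chosen.

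Of 11 other ligand genes, 4 were tested and 0 were called by edgeR, DESeq2, or limma, and 0 had an unadjusted p under 0.05 in any of the 3. *Gdf7*, a close relative of *Gdf5*, had a log2 fold change of 0.75 with a standard error of 0.97 and 0 to 21 counts per library. *Gdf6*, the other close relative, had 0 counts in every library.

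All 11 receptors and co-receptors outside the members were tested, and 1 was higher and 3 lower, or 36.4%. Over all tested genes, 7.13% were higher and 8.73% lower. Repulsive guidance molecule (RGM) proteins are GPI-anchored BMP co-receptors that bind neogenin, and the 3 lower genes were the RGM genes *Hjv* and *Rgmb* and the neogenin gene, while the RGM gene *Rgma* had a log2 fold change of 0.01 and was not called (edgeR adjusted p = 0.977). *Hjv* (hemojuvelin), the muscle and liver RGM, fell from 51.9 ± 1.66 to 27.1 ± 3.19 CPM (SD, n = 3; log2 fold change -0.94, edgeR adjusted p = 0.00198). *Neo1* (neogenin) fell from 107 ± 4.37 to 61.2 ± 5.78 CPM (-0.80, edgeR adjusted p = 0.00211), and *Rgmb* from 38.7 ± 1.36 to 29.1 ± 0.805 CPM (-0.41, edgeR adjusted p = 0.013). *Tgfbr3* (betaglycan), a proteoglycan that binds TGF-β, inhibin, and BMP ligands, rose from 4.98 ± 0.428 to 9.03 ± 0.305 CPM (0.86, edgeR adjusted p = 0.00477). None of these 4 genes overlapped between the groups. The calls of *Hjv*, *Neo1*, and *Tgfbr3* held under all 17 alternatives, and that of *Rgmb* was lost in 5, among them without the normal library 1, the normal library 3, or the DM1 library 2 (adjusted p up to 0.0785).

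The receptors themselves were not called. The log2 fold change was 0.48 for *Bmpr1b*, the type I receptor that GDF5 prefers, with 1.97 ± 0.387 and 2.74 ± 0.411 CPM in the normal and DM1 groups. In CPM each DM1 library (2.48 to 3.22) stood above each normal library (1.56 to 2.33) for *Bmpr1b*, while in TPM the groups overlapped. The log2 fold change was -0.24 for *Acvr1*, a type I receptor, and -0.35 and 0.54 for the type II receptors *Acvr2a* and *Acvr2b*. *Acvr2a* shares exonic bases with *Orc4* on the opposite strand, and the strand setting of the counting is not stated.

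Of 17 SMADs and intracellular regulators, 2 were called, both lower, or 11.8%, beside 7.13% higher and 8.73% lower among all tested genes. *Smurf1*, a ubiquitin ligase that targets SMAD1 and SMAD5, fell by 0.32 on the log2 scale (edgeR adjusted p = 0.0362), and *Ctdsp1*, a SMAD phosphatase, fell by 0.30 (edgeR adjusted p = 0.0405). Both calls were near the threshold and were lost in 8 and 10 of the 17 alternatives, including without the normal library 1, 2, or 3 or the DM1 library 1 or 2. The log2 fold change was 0.01 for *Smad4*, the partner of SMAD1 and SMAD5, 0.32 for *Smad9*, and 0.07 and 0.43 for the inhibitory *Smad6* and *Smad7*, and these were not called, though *Smad7* was called higher without the DM1 library 1 (edgeR adjusted p = 0.025). *Smad6* had 16 counts in the normal library 3 against 61 to 107 in the others, and its sign, like that of *Smad4*, changed with the libraries and scaling used.

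The extracellular modulators, which act outside the cell, were the list with the most tested genes. Of 18, 5 were higher and 5 lower, or 55.6%, beside 7.13% higher and 8.73% lower among all tested genes. *Grem1* (gremlin), which blocks BMP2, BMP4, and BMP7, rose from 117 ± 3.49 to 194 ± 5.58 CPM (SD, n = 3; log2 fold change 0.73, edgeR adjusted p = 0.00179). *Chrdl1*, a chordin-like BMP4 antagonist, rose from 15.8 ± 2.07 to 29.1 ± 1.87 CPM (0.88, edgeR adjusted p = 0.00332), and *Fstl1*, a follistatin-like secreted protein, from 633 ± 34.2 to 1049 ± 34.8 CPM (0.73, edgeR adjusted p = 0.00211). *Bmper*, a crossveinless-type modulator, rose by 0.47 (edgeR adjusted p = 0.0315). These genes were separate between the groups, each DM1 library standing above each normal library.

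Other antagonists moved the opposite way. *Fst* (follistatin), which binds activins, myostatin, and some BMPs, fell from 21.3 ± 1.26 to 11.4 ± 1.05 CPM (SD, n = 3; log2 fold change -0.90, edgeR adjusted p = 0.00276). *Twsg1* (twisted gastrulation), a partner of chordin, fell from 86.7 ± 3.8 to 56.5 ± 3.76 CPM (-0.62, edgeR adjusted p = 0.00328), and *Smoc2*, a matricellular protein, from 7.47 ± 0.331 to 4 ± 0.84 CPM (-0.90, edgeR adjusted p = 0.0119). *Nbl1*, a DAN-family antagonist, fell by 0.38 (edgeR adjusted p = 0.0236). The fifth gene in each direction, named after its value was seen, was *Bmp1*, a protease that cleaves chordin (0.43, edgeR adjusted p = 0.0335), and *Chrd* (chordin) itself (-0.53, edgeR adjusted p = 0.0402), which shares exonic bases with *Thpo* on the opposite strand. These calls were lost in 7 and 9 of the 17 alternatives, both without the normal library 1, 2, or 3 or the DM1 library 2 and that of *Chrd* also without the DM1 library 1. *Nog* (noggin) had 8 to 24 counts per library and was not called (-0.45). The calls of *Grem1*, *Fstl1*, *Chrdl1*, *Fst*, and *Twsg1* held under all 17 alternatives, while *Bmper* and *Nbl1* lost theirs in 8 and 7 (both without the normal library 1, 2, or 3 or the DM1 library 1, *Bmper* also without the DM1 library 3 and *Nbl1* without the DM1 library 2), and *Smoc2* without the normal library 1 or the DM1 library 2.

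**Figure D4:**
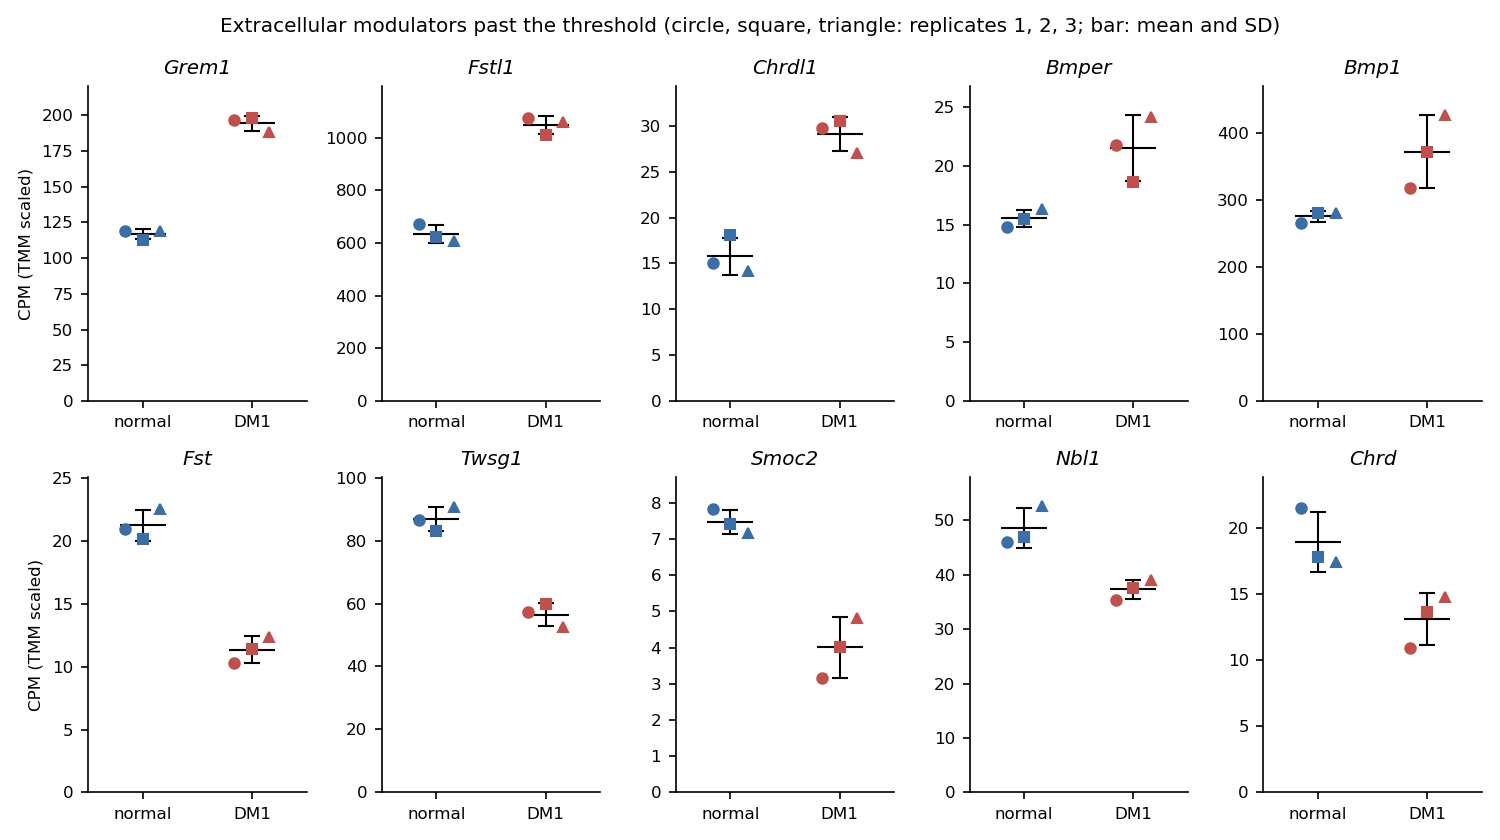
CPM (TMM scaled, linear axes from 0) of the 10 extracellular modulators past the threshold in each of the 3 normal (blue) and 3 DM1 (red) libraries, with the mean and SD as black bars. The upper row is higher and the lower row is lower in the DM1 group, and the libraries of the groups do not overlap in any of the panels.

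Among 14 tested genes known as BMP targets outside the *Id* members, 1 was higher and 2 were lower, or 21.4%. Among all tested genes the shares were 7.13% higher and 8.73% lower. *Hey1*, which is also a Notch target, fell from 37.7 ± 1.7 to 7.49 ± 2.71 CPM (SD, n = 3; log2 fold change -2.33, edgeR adjusted p = 0.00198), the only gene of the 6 lists past an absolute log2 fold change of 1. *Hes1*, another Notch target, fell by 0.67 (edgeR adjusted p = 0.0143), a call lost without the normal library 2 or 3. *Junb*, an immediate early gene, rose by 0.31 (edgeR adjusted p = 0.0246), a call lost in 7 alternatives, among them without the normal library 1, 2, or 3 or the DM1 library 2, and it shares exonic bases with *Prdx2* on the opposite strand. The osteoblast genes *Sp7* and *Alpl* did not pass the filter, and *Dlx5* had 0 counts in every library. *Runx2*, in the same list, stood at 45.1 ± 4.42 CPM in the normal and 50.5 ± 7.85 CPM in the DM1 group. It was not called (log2 fold change 0.16).

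The bHLH factors that ID proteins act on were tested as a list of 7, of which 3 were called (42.9%), all lower. Over all tested genes, 7.13% were higher and 8.73% lower. *Myog* fell from 321 ± 2.14 to 204 ± 7.88 CPM (SD, n = 3; log2 fold change -0.65, edgeR adjusted p = 0.00227), *Myod1* from 61.7 ± 3.04 to 43 ± 5.32 CPM (-0.52, edgeR adjusted p = 0.0129), and *Tcf12*, an E protein gene, from 157 ± 16 to 115 ± 3.59 CPM (-0.45, edgeR adjusted p = 0.0146). The E protein gene *Tcf3* had a log2 fold change of 0.05 and was not called. The *Myog* call held under all 17 alternatives, that of *Myod1* was lost without the normal library 3 or the DM1 library 2, and that of *Tcf12* was lost in 5, among them without the normal library 2 or 3 or the DM1 library 2.

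Markers of other cell types that BMP signaling can give rise to, or that the cultures could hold, were mostly near 0. *Dmp1* (log2 fold change -1.96, edgeR adjusted p = 0.000916) was lower among 3 tested osteoblast markers, and the summed level of the 6 listed was 8.91 to 10.7 TPM in the normal libraries and 3.46 to 3.88 TPM in the DM1 libraries. *Sox9* (-0.40, edgeR adjusted p = 0.027) was lower among 3 tested chondrocyte markers, while *Col2a1* (1.13) and *Matn3* (0.17) were not called. The *Sox9* call was lost in 6 alternatives, among them without the normal library 1, 2, or 3 or the DM1 library 2. The 6 listed summed to 24.9 to 25.6 TPM in the normal libraries and 14.4 to 21.8 TPM in the DM1 libraries. Most of this sum was *Sox9* itself, with group means of 25.1 and 17.7 TPM, and *Acan* and *Col9a1* were at 0 in every library. *Tek* (-0.95, edgeR adjusted p = 0.0107) was the single tested endothelial marker, a call lost without the DM1 library 2 (edgeR adjusted p = 0.0526), with 3.29 to 4.23 TPM against 1.18 to 2.15 TPM for the 5 listed. The adipocyte list (5.14 to 8.22 TPM over all libraries, *Adipoq*, *Fabp4*, *Cfd*, and *Lep* at 0) and the immune list (3.96 to 6.84 TPM, *Ptprc*, *Adgre1*, and *Cd3e* at 0) each had 1 tested gene, not called. The part of these markers in the BMP gene results was not tested.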

How the data were processed

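Total RNA of C2C12 cells at differentiation day 4 was sequenced from 3 normal (CUG5) and 3 DM1 (CUG200) libraries, grouped by the sample labels. Adapters were removed by the authors with trim_galore, HISAT2 served for alignment to GRCm38, and StringTie for counting. Tool versions, read length, and strand setting are not given in the sources used here. The deposited counts per gene are not normalized. The deposited coverage (signal), FPKM, and TPM values per gene came in a table for each library. From coverage times transcript length, a count was worth 75 bases within 1 count for 99.7% of 34267 single-transcript genes. TPM values served for levels per transcript length and an alternative test, and FPKM values in place of TPM only as an alternative for the share of *Bmpr1a* among the members.

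Genes were filtered with filterByExpr (minimum count 10), leaving 19005 genes, scaled by TMM (factors 0.940 to 1.05), and compared by the robust quasi-likelihood test of edgeR, with Benjamini-Hochberg adjustment at 0.05. The study used DESeq2 with an absolute log2 fold change over 1 as well. No pair of replicates differed by as little as sampling noise, so each library counted as 1 replicate. Gene positions were checked in GENCODE M21. The tests were also run on simulated data, and no result of those runs is given here.

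The members and gene lists were chosen with earlier results of these data known. Named were all members, a fixed set of receptors, SMADs, ligands, antagonists, and bHLH genes, up to 4 genes per list and direction by smallest p, and the 5 genes most like *Gdf5* and *Id1*. Alternatives were DESeq2 with its independent filtering tuned to 0.05, DESeq2 size factors, library sizes alone, no filter, at least 10 counts in every library, counts divided by 4, limma on log2(TPM + 1) and log2(TPM + 0.1), a block on the replicate number, no robust estimation, and each library left out. DESeq2 with filtering tuned to its default of 0.1 was added after seeing the data, because *Gdf5* had no adjusted p at 0.05. Tests ran in R 4.3.3 (limma 3.58.1, edgeR 4.0.16, DESeq2 1.42.0) and summaries in Python 3.11.15 (numpy 2.4.6, pandas 2.3.3, matplotlib 3.10.9, scipy 1.17.1).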

Additional observations from a re-analysis of the deposited data

How the results depend on the processing

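The *Gdf5* log2 fold change stayed negative wherever it was fitted. It ran from -5.01 to -0.57, the smallest size on log2(TPM + 1), where low values are compressed. DESeq2 with its independent filtering tuned to 0.05 gave *Gdf5* no adjusted p-value, so 0 members were called lower there. Tuned to 0.1, a setting added after that result was seen, it called *Gdf5* lower, and its log2 fold change was -4.29 in both. The filter of at least 10 counts in every library removed *Gdf5*, again leaving 0 members lower. With 1 library left out, 0 to 1 members were called higher, and with limma on either TPM scale 0 were, while 1 was called lower in each.

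Over all genes, limma on log2(TPM + 1) and log2(TPM + 0.1) called 427 and 434 higher and 816 and 850 lower, and past the fold cutoff 61 and 171 higher and 79 and 194 lower, against 259 higher and 155 lower in the edgeR test. With 1 library left out, 543 to 1678 genes were higher and 485 to 2111 lower, and past the fold cutoff 181 to 271 were higher and 91 to 192 lower. Of the pathway genes, 4 were higher with library sizes alone and with limma on either scale, 9 were lower with limma on either scale, and 4 to 8 were higher and 7 to 16 lower with 1 library left out. *Smad4* turned to -0.01 with library sizes alone, to -0.17 on both limma scales, and to -0.09, -0.01, and -0.08 without the normal library 2, the DM1 library 2, and the DM1 library 3, within a range of -0.09 to 0.12 over the left-out libraries. *Smad6* turned to -0.18 and -0.40 on the limma scales, to -0.38 without the normal library 3, and to -0.06 without the DM1 library 3 (range -0.38 to 0.41). *Tcf3* turned to -0.03 on both limma scales, and *Nog* to 0.34 without the normal library 2 (range -0.81 to 0.34). None of these 4 was called. Members near 0 also changed sign over the 17 alternatives. *Smad1* ran from -0.22 to 0.22, *Bmpr1a* from -0.15 to 0.13, and *Bmpr2* from -0.18 to 0.02. The causes were not tested.

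By counts in place of TPM, the *Id2* share was 60% in the normal and 70.5% in the DM1 group. Of the 5 genes most like *Gdf5*, 1 was shared by Spearman's rho and 0 by log2(TPM + 1), and of those most like *Id1*, 2 and 1. Same-numbered libraries of the groups correlated by 0.0675, 0.0222, and 0.0263 in their deviations, and differently numbered ones by -0.072 to 0.045. These values cannot show whether same-numbered libraries shared a culture or preparation. With the replicate number as a block, 1 member was higher and 1 lower, and 7 pathway genes were higher and 14 lower. Depth limits *Bmp2*, at about 1 fragment in all, and *Gdf5* in the DM1 group, at about 2.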
